A study of Homo sapiens with 26 samples.

Results

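The genes described here are 10 components of Wnt signalling, namely the secreted antagonists DKK1, DKK3, SOST and SFRP1, the ligands WNT5A, WNT7A and WNT10A, the receptor FZD7, the transcription factor LEF1 and the feedback inhibitor AXIN2. They were taken by symbol, and all 10 were found among the 26485 gene symbols that each of the 5 deposited tables holds. The set was chosen by measured values, namely the log2 fold changes of DKK3 and SOST, which were among the largest falls after depletion of TP63. The siTP63 values of these genes in KYSE180 and TE6 are therefore given as a description, with no test and no call. Whether siTP63 in KYSE150 also entered the choice is not given in the sources used here. mRNA-seq had been performed in 26 libraries from KYSE180, TE6 and KYSE150, established human lines of esophageal squamous cell carcinoma (ESCC). In KYSE180 the groups were siCont and siBRDT (3 libraries each, BRDT experiment) and, in a separate TP63 experiment, siCont and siTP63 (2 each). TE6 had siCont, siBRDT and siTP63 (2 each) in 1 table, so both TE6 comparisons share their control libraries. KYSE150 had siCont and siTP63 (2 each) and, in an overexpression experiment, control and BRDT-OE (3 each). siCont is a non-targeting small interfering RNA, siBRDT and siTP63 are siRNAs against BRDT and TP63, and knockdown cells were collected after 48 h. Per the study's methods, BRDT was introduced by electroporation of a plasmid and compared with the empty vector. BRDT is a BET-family bromodomain gene of the male germ line, and TP63 encodes the squamous transcription factor p63.

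Wnt ligands are lipid-modified secreted proteins that bind Frizzled receptors together with the co-receptors LRP5 and LRP6, which stabilises beta-catenin and lets it act with LEF1 or a TCF factor on target genes such as AXIN2. Other ligands, WNT5A among them, mainly signal through Frizzled without beta-catenin. DKK1 and SOST (sclerostin) block the co-receptors, SFRP proteins bind the ligands themselves, and DKK3 is a divergent member of the Dickkopf family whose effect on the pathway is less settled. SOST is best known from osteocytes, where it restrains bone formation.

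BRDT and TP63 were examined first as a check of the labels. In the BRDT experiment BRDT values were 1017 to 1136 with siCont and 132 to 198 with siBRDT, in TE6 they were 241 to 242 and 46.6 to 55.0, and in KYSE150 they went from 6.58 to 16.0 in controls to at least 15871.5 in BRDT-OE. TP63 values went from 2573 and 3035 to 794 and 925 under siTP63 in KYSE180, from 2596 and 2785 to 133 and 112 in TE6, and from 695 and 729 to 170 and 114 in KYSE150. TP63 was also called lower under siBRDT, with a log2 fold change of -0.58 in KYSE180 and -1.15 in TE6. Libraries held 7582089 to 19372441 reads. All 8 squamous marker genes examined had a mean value of at least 10 in every group. Their summed value was lower under each knockdown, for example 56777 to 60002 with siBRDT against 96741 to 105534 with siCont in KYSE180, and 19666 to 20875 with siTP63 against 85160 to 88387 with siCont in TE6. The sum of 8 interferon-response genes was 19912 to 24422 with siBRDT and 12713 to 13473 with siTP63 in TE6, where siCont had 1857 to 2141. In KYSE180 it was 20170 to 20247 with siTP63 against 3896 to 4654, and 6364 to 7659 with siBRDT against 6561 to 7323, ranges that overlapped. In BRDT-OE it was 866 to 965 against 3412 to 4829 in control. Of the 4 osteocyte markers, MEPE was at 0 reads in 17 libraries and the summed value of all 4 was at most 21.6 in any library. Among 6 fibroblast markers DCN was at 0 reads in 17 libraries, but COL1A1 was at 0 reads in 0 libraries, with values of 56.4 to 992. The summed fibroblast list was 1057 to 1198 with siCont of the BRDT experiment in KYSE180 and 65.3 to 75.4 with siCont in KYSE150. Among 4 leukocyte markers PTPRC was at 0 reads in 16 libraries. The summed leukocyte list, most of it CD68, was 230 to 276 with siBRDT in KYSE180 against 544 to 612 with siCont, and the endothelial list of 3 genes, most of it VWF or CDH5, was 137 to 139 with siTP63 against 22.6 to 36.2 in KYSE180. The part of the squamous and interferon-response shifts and of these lists in the Wnt gene values was not tested.

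The knockdown reagents are shown because the siRNA comparisons rest on them. The study lists 1 non-targeting, 4 BRDT and 2 TP63 siRNAs, each of 19 bases, and which of them gave each library is not given in the sources used here. In GENCODE release 44 transcripts, every BRDT siRNA matched BRDT alone and each TP63 siRNA matched TP63 alone without a mismatch, the non-targeting siRNA matched no gene, and none matched a transcript of the 10 Wnt genes. They read as follows, 5′ to 3′, in lower case since no stretch is singled out:
siRNA number 5 with no target in human cells: ugguuuacaugucgacuaa
siRNA number 2 directed at BRDT: caaaucaacuucaguaucu
siRNA number 3 directed at BRDT: gaaaauggauaaccaagaa
siRNA number 4 directed at BRDT: guagagagaacacuaauga
siRNA number 18 directed at BRDT: gagauaaacuugggcgagu
siRNA number 5 directed at TP63: caucaugucuggacuauuu
siRNA number 8 directed at TP63: cgacagucuuguacaauuu

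In order to describe which Wnt genes each line expressed in its control libraries, which had received siCont or the empty vector, levels per length were computed as RPKM, the reads scaled to the merged exon length and to the library's total reads. DKK3 led in TE6 (32.7 and 33.4 RPKM), where SOST was second (17.9 and 20.8 RPKM). In KYSE180 the antagonists DKK1 and DKK3 and the ligand WNT5A had the highest medians over 5 control libraries, 38.8, 22.2 and 11.8 RPKM. Of these libraries 3 are from the BRDT experiment, and the order changed in the 2 of the TP63 experiment. There the means were 12.5 RPKM for DKK3, 7.49 for DKK1, 4.36 for SOST and 3.36 for WNT5A. KYSE150 expressed another set, with DKK1 (median 43.9 RPKM), WNT10A (12.7 RPKM) and WNT7A (6.41 RPKM) on top. These orders rest on the merged exon length, 11958 bases for DKK3 and 2221 for DKK1. Of the DKK3 length, 47.5% is shared with the gene USP47 on the opposite strand. By reads, KYSE150 controls held 472 to 1143 for DKK3, 415 to 789 for WNT10A and 357 to 502 for WNT7A. KYSE180 controls held 1532 to 3950 for DKK3 and 189 to 1279 for DKK1. WNT5A had 1 read in each of the 5 KYSE150 control libraries, LEF1 and SFRP1 had 0 reads in all of them, and SOST had 1 to 6 reads. A count of 0 allows up to 3 reads, which equals 0.183 to 0.259 RPM, that is reads after scaling every library to one total, in these libraries and covers counting error only. AXIN2, the classical readout of beta-catenin signalling, stayed between 0 and 10 reads in every control library of the 3 lines, and SFRP1 reached 18 and 25 reads only in TE6. SOST, DKK3 and LEF1 were highest in TE6 and lowest in KYSE150, whereas WNT7A and WNT10A were highest in KYSE150 and lowest in TE6, with ranges apart between neighbouring lines. How many of all genes separate the lines in this way was not counted, so the separation is not shown to be particular to these genes. For DKK1 and FZD7 the ranges of neighbouring lines overlapped, and for WNT5A those of KYSE180 and TE6 did.

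**Figure D1:**
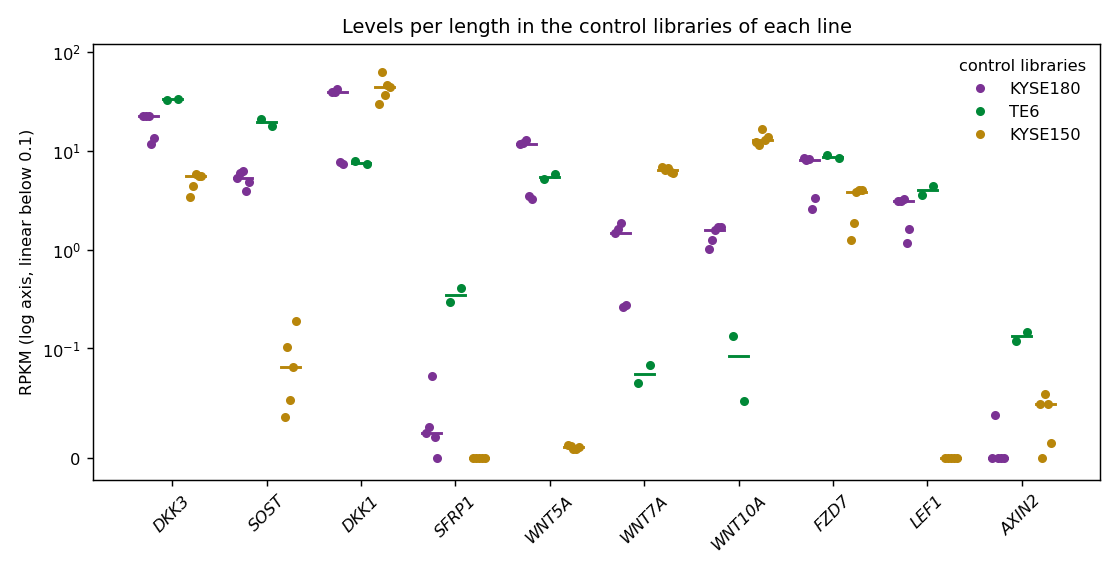
Levels per length (RPKM, log axis that is linear below 0.1) of the 10 Wnt genes in the control libraries of KYSE180 (5 libraries), TE6 (2) and KYSE150 (5). Points are libraries and bars are medians. SOST separates the lines from 17.9 RPKM or more in TE6 down to at most 0.189 RPKM in KYSE150, and WNT10A runs the other way.

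Part of this spread came from the 2 control groups of KYSE180, which belong to separately normalised tables and were not tested against each other. DKK1 had 38.8 to 42.0 RPKM in siCont of the BRDT experiment but 7.26 and 7.73 RPKM in siCont of the TP63 experiment. WNT5A had 11.8 to 12.8 RPKM in the former and 3.24 and 3.48 RPKM in the latter, WNT7A 1.46 to 1.85 RPKM and 0.261 and 0.274 RPKM. FZD7 had 8.05 to 8.51 RPKM and 2.60 and 3.34 RPKM, and LEF1 3.10 to 3.24 RPKM and 1.17 and 1.61 RPKM. DKK3 had 22.2 to 22.6 RPKM and 11.6 and 13.4 RPKM, and SOST 5.27 to 6.29 RPKM and 3.88 and 4.83 RPKM. WNT10A was the exception, with 1.02 to 1.59 RPKM and 1.68 and 1.68 RPKM. TP63 itself had 113 to 126 RPKM in the first and 19.9 and 24.5 RPKM in the second. The starting level of most of the Wnt genes named here thus differed between the experiments in KYSE180, and each change below was measured within 1 table.

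With siBRDT most of the measurable Wnt genes were lower in both KYSE180 and TE6. In bulk RNA, fewer cells expressing a gene and less RNA per cell cannot be told apart. In KYSE180, 8 of the 10 genes reached a mean of 10 and were tested, and 7 of them were called lower and 0 higher by limma. A call needed a Benjamini-Hochberg adjusted p under 0.05 and a change of 0.5 or more on the log2 scale. Of all 13589 genes tested there, 15.8% were called lower and 14.5% higher. In TE6, 7 of the 10 genes were tested, and 5 were called lower and 0 higher, with 18.1% of 13333 genes called lower and 15.6% higher. The median log2 fold change of the tested Wnt genes was -0.89 in KYSE180 and -0.91 in TE6, beside -0.0052 and -0.039 over all genes. 1 TE6 library stood apart, siBRDT replicate 1, with 20995 genes holding a read and an upper quartile of values of 391, where the other 5 TE6 libraries had 16458 to 17569 genes and 507 to 565. Without it, which left 1 siBRDT library in TE6, the log2 fold changes were -0.70 for DKK3, -2.31 for SOST and -0.99 for WNT5A. FZD7 then had -1.02, LEF1 -0.64 and DKK1 -0.34. SFRP1 and AXIN2 in KYSE180, and WNT7A, WNT10A and AXIN2 in TE6, were below the filter. These genes were chosen with earlier results of the data known, so the counts describe the 10 genes and no wider set.

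Under siTP63 the log2 differences of the genes in KYSE180 lay on both sides of 0, from -4.72 to -0.31 for DKK3, WNT7A, SOST and LEF1 and from 0.86 to 1.71 for DKK1, FZD7, WNT10A and WNT5A. In TE6 they ran from -5.80 for SOST to 0.22 for DKK1. Both contrasts were used in selecting the genes, so nothing is read from these values. With libraries rescaled to equal upper quartiles the median of all genes in KYSE180 moved from 0.00064 to 0.20, and of all genes those called lower and higher went from 3577 and 3292 to 2629 and 4540. In KYSE150 0 of 5 tested genes were called by limma, where the lowest adjusted p of any gene was 0.080 and 0% of 12335 genes were called in either direction. At an unadjusted p under 0.05, 3 of these 5 genes and 17.8% of all genes passed, whereas DESeq2 called 1 of the 5 and edgeR 0. DKK3 is 1 of the 5 and was picked for its fall under siTP63, so these counts are not independent of that choice.

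BRDT-OE in KYSE150 moved 2 of 5 tested genes down and 1 up, against 16.0% and 10.5% of 12765 genes. After rescaling to equal upper quartiles those all-gene counts went from 2043 lower and 1343 higher to 2537 and 890, and the Wnt counts stayed at 2 and 1.

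**Figure D2:**
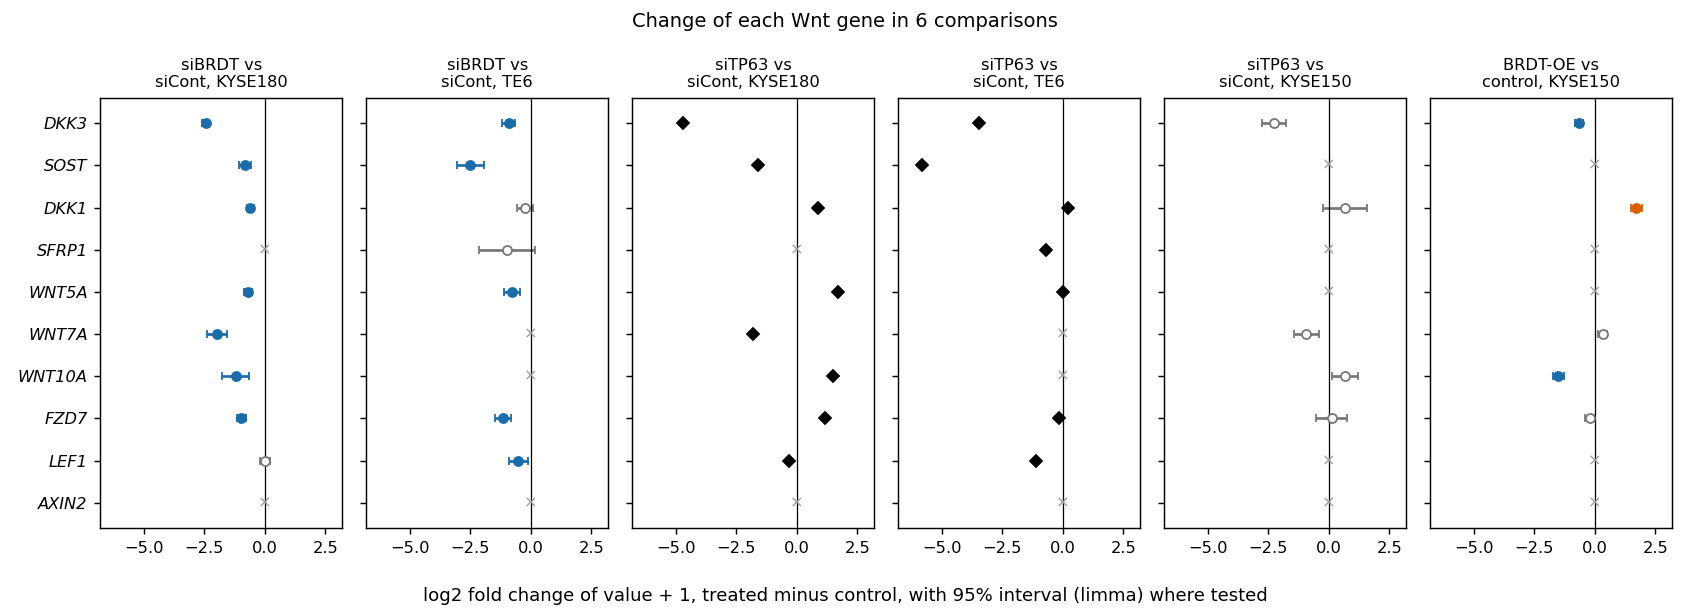
Log2 fold change of value + 1 (treated minus control, points) with its 95% interval (bars, limma) for the 10 Wnt genes in 6 comparisons. Filled blue and orange points are called lower and higher, open grey points are not called, and a cross marks a gene below the filter. Black diamonds, with no interval and no call, are the siTP63 differences of KYSE180 and TE6, which chose the genes. Whether siTP63 in KYSE150 also entered the choice of DKK3 is not known, so its interval there is not read. The siBRDT panels hold 0 genes called higher.

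DKK3 (chromosome 11, 11956207 to 12009769, minus strand, hg38, GENCODE release 44) is the divergent Dickkopf antagonist. It was lower than control with siBRDT in KYSE180 and TE6 and with BRDT-OE in KYSE150. Its falls with siTP63 are those it was picked for, so they are not counted with these. In KYSE180 its values were 2961, 2986 and 2975 with siCont and 589, 512 and 541 with siBRDT. The groups were far apart, with a log2 fold change of -2.44 ± 0.067 (SE; limma adjusted p = 9.2e-12). TE6 had 4421 and 4486 with siCont and 2031 and 2748 with siBRDT, a smaller fall of -0.91 ± 0.13 (limma adjusted p = 1.3e-04). The TE6 siCont libraries also entered the siTP63 contrast by which DKK3 and SOST were chosen, so the TE6 tests of both genes are not independent of that choice. With siTP63 DKK3 stood at 100.5 and 90.6 in KYSE180, where siCont had 2410 and 2662, a log2 difference of -4.72. In TE6 the siTP63 libraries had 396 and 397, or -3.49. In KYSE150 it went from 701 and 775 to 156 and 146, a log2 difference of -2.28. DKK3 was picked for its fall under siTP63, and KYSE150 may have entered that choice, so this is not independent evidence of its direction. DKK3 under siTP63 in KYSE150 is therefore described, with no test read. BRDT-OE did not raise it: control libraries had 1033, 982 and 1013 and BRDT-OE libraries 688, 628 and 620.1, a fall of -0.65 ± 0.075 (limma adjusted p = 7.9e-05).

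The exons of DKK3 overlap those of USP47 on the opposite strand over 47.5% of their merged length in GENCODE, and whether counting used strand is not given in the sources used here, so reads of the shared stretch could belong to either gene. USP47, a deubiquitinase gene, had values of 1056 and 1104 with siCont and 1095 and 1164 with siTP63 in KYSE180, while DKK3 differed by the amounts above. With siBRDT USP47 went from 1150, 1146 and 1114 to 904, 932 and 998 in KYSE180, and from 986 and 1144 to 646 and 687 in TE6.

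SOST (chromosome 17, 43753738 to 43758791, minus strand) was a TE6 and KYSE180 gene. In TE6 its values were 541 and 463 with siCont and 76.6 and 100.3 with siBRDT, a fall of -2.50 ± 0.26 (limma adjusted p = 1.8e-05, with the same limit on its controls as for DKK3). With siTP63 only 16 and 4 SOST reads were left (values 10.6 and 5.92), a log2 difference of -5.80 from the same controls. KYSE180 had 135, 152 and 159 with siCont and 84.1, 88.0 and 79.2 with siBRDT, a fall of -0.82 ± 0.12 (limma adjusted p = 4.2e-05). In the TP63 experiment SOST had 154 and 184 with siCont and 50.6 and 58.0 with siTP63, or -1.62. With siBRDT the SOST values lay below the control range in both lines. How many of all genes lay apart in this way was not counted. The siTP63 values chose the gene, so their distance from control is not read. In KYSE150 all 10 libraries held 0 to 6 SOST reads, and no change was detectable at this depth.

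**Figure D3:**
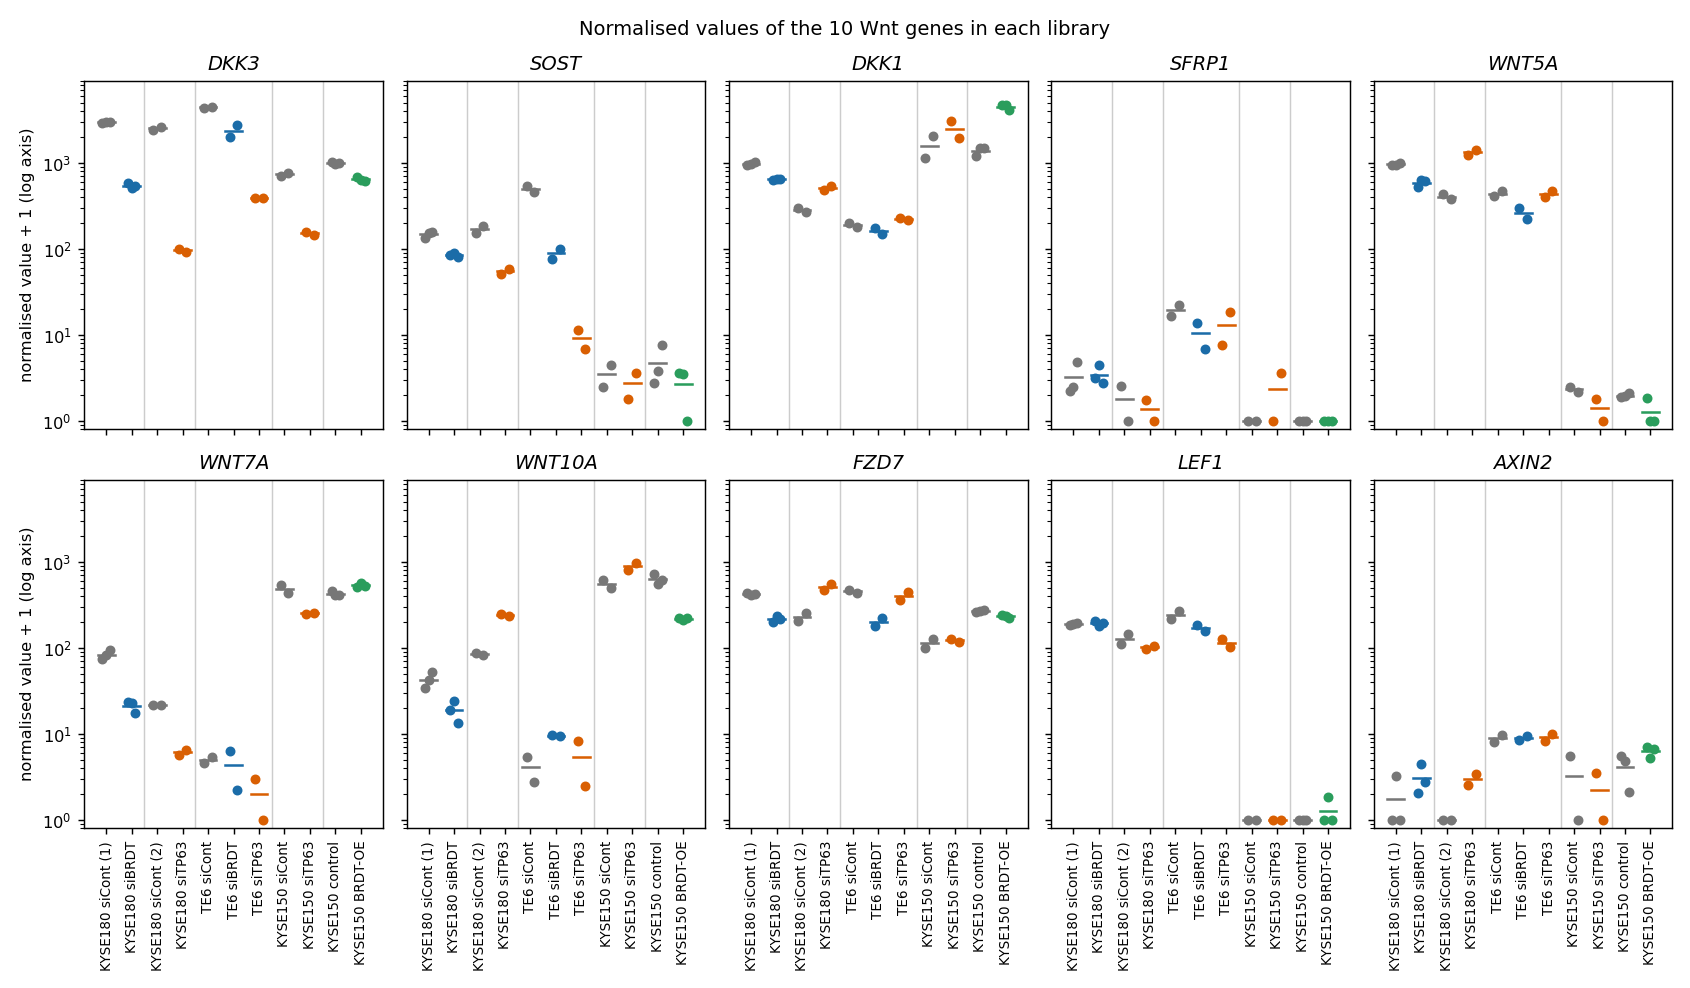
Normalised values plus 1 (log axis) of the 10 Wnt genes in all 26 libraries. Points are libraries, bars are group means, grey marks controls, blue siBRDT, orange siTP63 and green BRDT-OE, and grey lines separate the 5 tables; siCont (1) is the BRDT and siCont (2) the TP63 experiment. DKK3 is lower than its control with siBRDT and BRDT-OE, and also with siTP63, the fall for which it was picked. DKK1 is higher in BRDT-OE, and LEF1 and WNT5A are near 0 in KYSE150.

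DKK1 (chromosome 10, 52314281 to 52318042, plus strand), the canonical LRP-binding antagonist and itself a Wnt target, moved the other way in part of the comparisons. With siBRDT in KYSE180 it fell from 960.4, 967 and 1025 to 629, 654 and 657, or by 0.60 on the log2 scale (SE 0.067, limma adjusted p = 2.3e-06). In TE6 it had 198 and 182 with siCont and 173 and 149 with siBRDT, a difference of -0.24 that was not called (95% interval -0.57 to 0.092, limma adjusted p = 0.22). With siTP63 it had 485 and 543 against 297 and 267 in KYSE180, or 0.86, and 229 and 215 against 198 and 182 in TE6, or 0.22. In KYSE150 the 2 siCont libraries themselves differed (1142 and 2054), and siTP63 libraries had 3060 and 1940, overlapping them (0.67, 95% interval -0.23 to 1.57). The log2 value ranged from 0.25 to 1.09 over the alternatives. BRDT-OE raised DKK1 from 1193, 1504 and 1480 to 4727, 4738.5 and 4137, a log2 fold change of 1.71 ± 0.099 (limma adjusted p = 2.2e-06). Of DKK1 exons 10.2% overlap PRKG1-AS1 on the opposite strand, so reads there could belong to either gene.

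SFRP1 (chromosome 8, minus strand), which sequesters Wnt ligands, was scarcely read. TE6 libraries held 18 and 25 reads with siCont, 12 and 5 with siBRDT and 10 and 12 with siTP63. The siBRDT difference of -0.98 was not called (95% interval -2.13 to 0.17, limma adjusted p = 0.15). Without siBRDT replicate 1, which left 1 siBRDT library, it was -1.48. KYSE180 held at most 4 SFRP1 reads per library and KYSE150 at most 2.

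Of the ligands, WNT5A (chromosome 3, 55465715 to 55490539, minus strand), the main non-canonical Wnt, fell with siBRDT in both lines that express it. KYSE180 values were 938, 954 and 1005 with siCont and 529, 628 and 616 with siBRDT, a log2 fold change of -0.71 ± 0.078 (limma adjusted p = 2.1e-06). TE6 values were 415 and 469 with siCont and 298 and 221 with siBRDT, or -0.78 ± 0.16 (limma adjusted p = 0.0016). With siTP63 it was higher in KYSE180 (1249 and 1426 against 431 and 384, or 1.71) and within the control range or next to it in TE6 (403 and 471 against 415 and 469, or -0.017). The siTP63 values chose the set, so no opposite response of WNT5A is read from the 2 KYSE180 experiments. Their WNT5A controls also differed, with 11.8 to 12.8 RPKM in the BRDT experiment and 3.24 and 3.48 RPKM in the TP63 experiment.

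WNT10A (chromosome 2, 218880852 to 218899581, plus strand), a beta-catenin-activating ligand of ectodermal appendages, was lower with siBRDT in KYSE180. Its values were 33.1, 40.8 and 51.0 with siCont and 18.1, 23.2 and 12.2 with siBRDT, a fall of -1.20 ± 0.26 that rests on 14 to 54 reads per library (limma adjusted p = 0.0011). With siTP63 it had 245 and 230.4 against 84.9 and 81.1, or 1.50. KYSE150, where WNT10A was abundant, had 616 and 496 with siCont and 801 and 961 with siTP63, without overlap but not called (0.67, 95% interval 0.13 to 1.20, limma adjusted p = 0.21). BRDT-OE lowered it from 713, 550 and 606 to 221, 209 and 222, a fall of -1.51 ± 0.11 (limma adjusted p = 5.4e-06).

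WNT7A (chromosome 3, 13816258 to 13880071, minus strand), a ligand of epithelia, was lower with siBRDT in KYSE180. In KYSE180 it went from 73.5, 80.9 and 92.2 to 22.4, 22.0 and 16.5 with siBRDT, a log2 fold change of -1.97 ± 0.19 (limma adjusted p = 6.3e-07). With siTP63 only 6 and 7 reads were left against 13 and 20 with siCont (values 4.60 and 5.56 against 20.4 and 20.5, or -1.83). In KYSE150 siTP63 libraries had 244 and 256 and siCont libraries 530 and 430, a difference of -0.93 that was not called (95% interval -1.46 to -0.40, limma adjusted p = 0.14). BRDT-OE had 511, 563 and 527 against 454, 411 and 412, a difference of 0.33 ± 0.085, under the limit on the fold change (limma adjusted p = 0.0089). In TE6 both ligands had at most 11 reads per library.

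FZD7 (chromosome 2, 202033855 to 202038441, plus strand, a single exon), a Frizzled receptor used by canonical and non-canonical ligands, fell with siBRDT in both lines. KYSE180 had 435, 413 and 418 with siCont and 201, 232 and 213 with siBRDT, or -0.97 ± 0.087 (limma adjusted p = 3.0e-07). TE6 had 472 and 431 with siCont and 180 and 222 with siBRDT, or -1.17 ± 0.15 (limma adjusted p = 8.4e-05). With siTP63 it was higher in KYSE180 (469 and 558 against 206 and 254, or 1.16), whereas TE6 had 358 and 445, overlapping its controls (-0.17). In KYSE150 neither siTP63 (0.11, 95% interval -0.54 to 0.76) nor BRDT-OE (-0.21, 95% interval -0.41 to -0.0020, limma adjusted p = 0.085) gave a call.

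LEF1 (chromosome 4, 108047545 to 108168956, minus strand), the DNA-binding partner of beta-catenin, had 185, 187 and 191 with siCont and 202, 179 and 192 with siBRDT in KYSE180, with overlapping groups and a log2 difference of 0.022 (95% interval -0.19 to 0.23, limma adjusted p = 0.86). In TE6 it had 217 and 268 with siCont and 181 and 154 with siBRDT, a fall of -0.53 ± 0.18 just past both limits (limma adjusted p = 0.029). That call was lost with no filter on low values, after rescaling to equal upper quartiles (-0.49), with DESeq2 (adjusted p = 0.077), and without siCont replicate 1, siCont replicate 2 (-0.38) or siBRDT replicate 2. With siTP63 LEF1 had 125 and 101 in TE6, or -1.10, and 95.9 and 104 against 109 and 143 in KYSE180, or -0.31. Of LEF1 exons 5.20% overlap LEF1-AS1, which held 0 to 18 reads per library. AXIN2 (chromosome 17, 65528563 to 65561648, minus strand), which feeds back on beta-catenin, held 7 to 10 reads in TE6 libraries with siCont or siBRDT and 6 and 11 with siTP63, and at most 7 in any other library, so that no change was detectable at this depth.

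The siBRDT change itself was compared between KYSE180 and TE6 for the 6 members tested in both lines, as a limma contrast of both fold changes with no limit on their size. It differed for 4 of the 6, where 41.9% of 12612 genes differed. DKK3 fell further in KYSE180 (difference of log2 fold changes -1.53 ± 0.14, limma adjusted p = 5.3e-07), and SOST fell further in TE6 (1.68 ± 0.28, limma adjusted p = 1.6e-04). Both tests use the TE6 siCont libraries that entered the choice of these genes. Without TE6 siBRDT replicate 1, which left 1 siBRDT library in TE6, the DKK3 and SOST differences were -1.75 and 1.49. For DKK1 (-0.37, limma adjusted p = 0.046) and LEF1 (0.55, limma adjusted p = 0.030) the difference was smaller. The DKK1 call was lost without any 1 library other than TE6 siCont replicate 1 and TE6 siBRDT replicate 2 (adjusted p = 0.059 to 0.16). The LEF1 call was lost without KYSE180 siCont replicate 1 or 2, KYSE180 siBRDT replicate 1, TE6 siCont replicate 2 or TE6 siBRDT replicate 2 (adjusted p = 0.056 to 0.18). WNT5A (0.068, 95% interval -0.29 to 0.43) and FZD7 (0.20, 95% interval -0.16 to 0.56) were not shown to differ. The BRDT fold change was -2.75 in KYSE180 and -2.23 in TE6, and the summed interferon-response genes overlapped between groups in KYSE180 but not in TE6.

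**Figure D4:**
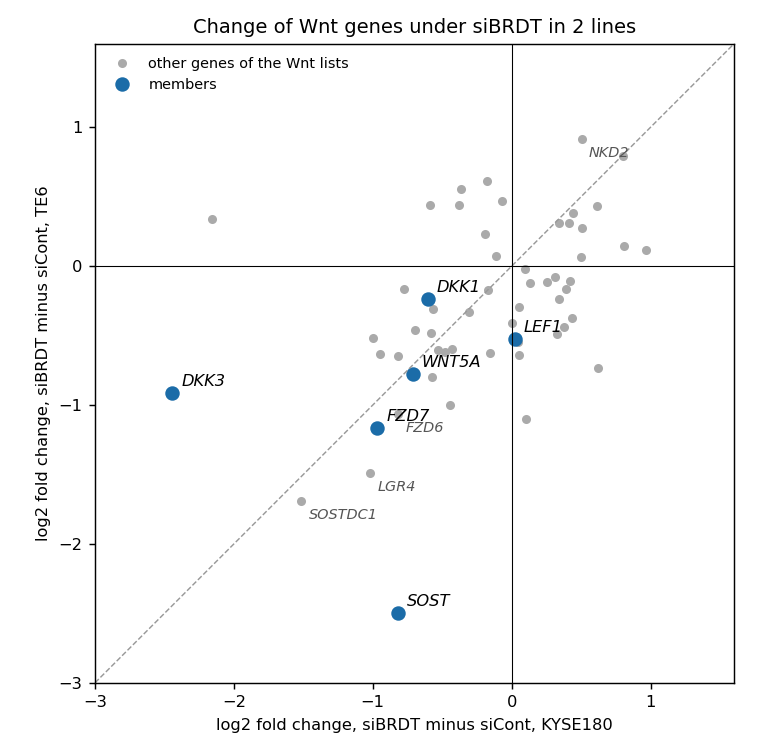
Log2 fold change of siBRDT against siCont in KYSE180 (horizontal axis) and TE6 (vertical axis) for the 6 Wnt genes described here that were tested in both lines (blue) and 52 other genes of the Wnt lists (grey); the dashed line marks equal changes. Of the 6, 5 lie below 0 on both axes, as do 18 of the 52, with DKK3 far to the left of the line and SOST far below it.

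The other genes of the pathway were taken from lists by role, 80 genes in all. With siBRDT, 17 of 62 tested were called lower and 11 higher in KYSE180 (15.8% and 14.5% of all genes), and 16 of 55 lower and 2 higher in TE6 (18.1% and 15.6%). Their median log2 fold change was 0.025 in KYSE180 and -0.17 in TE6. Receptors and co-receptors held 9 of the 17 lower calls in KYSE180, from 17 tested (1 higher), and 8 of the 16 in TE6, from 15 tested (0 higher), with medians of -0.53 and -0.54. Those lower in both lines were FZD1, FZD6, LRP4, LRP6 and RYK. LRP6, the co-receptor that DKK1 and SOST bind, fell by 0.53 on the log2 scale in KYSE180 and by 0.60 in TE6. Of the feedback targets, 6 of 11 tested were called higher and 2, DKK1 and FZD7, lower in KYSE180, and 1 of 10 higher and 2, FZD7 and LEF1, lower in TE6. Leaving the members out, they were 6 higher and 0 lower of 8, and 1 higher and 0 lower of 7. BAMBI (0.81), a Wnt-induced pseudoreceptor, APC (0.62), a scaffold of the complex that degrades beta-catenin, and ZNRF3 (0.51), which removes Frizzled from the cell surface, rose most among the abundant genes in KYSE180, and NKD2, a Dishevelled-binding inhibitor, rose in TE6 (0.92).

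Among other secreted antagonists only SOSTDC1, WIF1, SFRP5 and NOTUM passed the filter in KYSE180, where 2 were called lower with siBRDT (SOSTDC1, and WIF1 at -1.64) and 2 higher (SFRP5 at 0.97 and NOTUM at 0.80). In TE6, 3 passed it, with 1 called lower (SOSTDC1) and 0 higher. SOSTDC1, a paralog of SOST, fell with siBRDT from a mean of 728 to 254 (n = 3 each) in KYSE180, a log2 fold change of -1.51 ± 0.080 (SE; limma adjusted p = 1.3e-09). In TE6 it fell from a mean of 517 to 160 (n = 2 each), or -1.69 ± 0.13 (limma adjusted p = 3.1e-06). LGR4, a receptor for R-spondins, fell in both lines (-1.02 and -1.49), as did the receptor FZD6 in TE6 (-1.06) and the ligand WNT3, by a like amount, in KYSE180. DKK2 and CER1 had a mean of 0 in the control groups of all 6 comparisons.

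With siTP63, 12 of 58 other Wnt genes were called lower and 20 higher in KYSE180 (25.7% and 23.6% of all 13924 genes), and 13 of 55 lower and 6 higher in TE6 (20.6% and 18.3% of 13333). LGR4 was higher in KYSE180 (1.86) and lower in TE6 (-0.97), and SOSTDC1 was higher in KYSE180 (0.75) and not called in TE6 (-0.47). The largest changes in abundant genes of KYSE180 were otherwise the rises of LGR6 (1.35), another R-spondin receptor, and BTRC (0.97), a ubiquitin ligase adaptor for beta-catenin, and the falls of the ligand WNT11 (-2.45), NKD2 (-2.23) and the DKK1 receptor KREMEN2 (-1.50). In TE6 the beta-catenin inhibitor CTNNBIP1 (0.96), the ligand WNT5B (0.89) and the Frizzled-degrading RNF43 (0.69) rose, and APC (-1.03) and FZD1 (-0.75) fell. In KYSE150 0 of 49 were called by limma. BRDT-OE lowered 8 of 47 and raised 6 (16.0% and 10.5% of all genes), among them a fall of the R-spondin RSPO4 (-1.42) and of the DKK1 receptors KREMEN2 (-1.22) and KREMEN1 (-1.12), and a rise of ROR1 (1.02), a WNT5A receptor, PORCN (0.69), which lipidates Wnt ligands, and WNT7B (0.62).

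Promoters of members that lay apart from control in both KYSE180 comparisons are shown, ordered by direction. DKK1, WNT5A, WNT10A and FZD7 were below control with siBRDT and above it with siTP63, whereas DKK3, SOST and WNT7A were below it with both. The siTP63 directions come from values that chose the set. The order is therefore a description, and no link between direction and sequence is read from it. RefSeq promoters (GRCh38.p14) were found for 6 of the 10 genes, and none for DKK3, SFRP1, AXIN2 and FZD7. WNT5A has 2 starts that gene totals cannot separate, so it is not printed. Each run is the 250 bases before the start, 5′ to 3′ on the gene's strand, and capitals mark the TCF/LEF core CTTTGA on either strand:
DKK1, chr10:52314031-52314280, plus strand: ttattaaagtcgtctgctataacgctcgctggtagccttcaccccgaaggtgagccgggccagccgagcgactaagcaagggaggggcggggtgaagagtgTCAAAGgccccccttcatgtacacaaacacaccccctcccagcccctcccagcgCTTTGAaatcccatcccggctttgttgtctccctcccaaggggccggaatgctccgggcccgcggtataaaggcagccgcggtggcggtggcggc
WNT10A, chr2:218880602-218880851, plus strand: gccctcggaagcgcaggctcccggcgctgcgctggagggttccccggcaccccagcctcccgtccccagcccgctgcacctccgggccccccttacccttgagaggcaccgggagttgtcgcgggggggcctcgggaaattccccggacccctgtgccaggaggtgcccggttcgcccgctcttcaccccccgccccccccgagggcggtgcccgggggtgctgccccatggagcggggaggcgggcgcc
SOST, chr17:43758792-43759041, minus strand: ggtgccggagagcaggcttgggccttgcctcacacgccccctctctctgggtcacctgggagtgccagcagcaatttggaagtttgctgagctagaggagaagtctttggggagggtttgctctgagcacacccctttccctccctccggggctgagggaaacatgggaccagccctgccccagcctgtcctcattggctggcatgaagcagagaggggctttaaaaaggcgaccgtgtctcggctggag
WNT7A, chr3:13880072-13880321, minus strand: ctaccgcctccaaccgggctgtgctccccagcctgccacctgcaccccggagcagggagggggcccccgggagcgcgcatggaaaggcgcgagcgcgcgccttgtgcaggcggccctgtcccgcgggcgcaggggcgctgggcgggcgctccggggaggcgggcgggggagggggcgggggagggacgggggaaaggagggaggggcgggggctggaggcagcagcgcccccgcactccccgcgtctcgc

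The TCF/LEF core occurred 2 times in the DKK1 window, starting 149 and 95 bases before the start, and in 11.2% of 35116 windows of the same length. None of the windows of SOST, WNT5A (both starts), WNT7A, WNT10A or LEF1 held it. The p53-family half-site, searched by its degenerate consensus, was in 0 of the 7 windows of these genes and in 5.57% of all windows. WNT7A and WNT10A share a high base content of G and C (80.4% and 77.6%), against 62.8% for DKK1 and 61.2% for SOST. A match or its absence describes these letters in this window only.

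The genes whose change was most like that of a member were sought over all 26 libraries, on log2 values from which the mean of the same table's controls had been subtracted, among 11336 genes with a mean of at least 10 in every table. For DKK3 they included CTNNAL1 (Pearson r = 0.96) and NRG1 (0.96), and for SOST, which is near 0 in KYSE150, they were DGKA (0.93), PLAT (0.92) and KIAA0040 (0.91). DKK1 was most like NCDN (0.93) and FZD7 most like COL4A5 (0.96). These libraries share treatments and control means, so the correlations describe likeness of pattern and carry no test.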

How the data were processed

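mRNA-seq of the 26 libraries was prepared with a TruSeq RNA kit from total RNA. Per the study's methods, the authors aligned the reads to hg38 (STAR), counted them by gene (HTSeq) and normalised the counts (DESeq2) (versions 2.6.0, 0.11.2 and 1.24.0, from the submitters' processing notes). The annotation and strand setting of counting are not given in the sources used here. What the authors deposited is a normalised signal: counts of each gene over the library's size factor, with 5 tables scaled apart. Whole reads could be recovered for 100% of values (tolerance 0.01), 7582089 to 19372441 per library. Columns were assigned to samples by name, and 0 columns were left without a sample. Whether replicates were separate cultures is not stated, so p-values measure the spread between these libraries, which may be technical.

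Log2(value + 1) was fitted with limma 3.58.1 (R 4.3.3, trend), genes having a mean of at least 10, each table alone. This scale understates the change of a low gene. Calls needed a Benjamini-Hochberg adjusted p-value under 0.05 over all genes tested and a change of 0.5 or more on the log2 scale. DESeq2 1.42.0 and edgeR 4.0.16 on those reads, a pseudocount of 0.1, no filter, equal upper quartiles, a replicate block, no fold limit, fits of 2 TE6 groups and leaving out each library were the alternatives. Fits were tested on simulated data.

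Members and lists were chosen with earlier results of these data known. All 10 members are named, plus, per comparison, up to 3 called genes of the Wnt lists in each direction with the largest change and a mean of at least 100. SOSTDC1 under siTP63, LRP6, the antagonists that passed the filter and the receptors lower in both lines were named after their values were seen. Coordinates are from GENCODE release 44 on hg38. Figures used matplotlib in Python. Of the genes most like a member by correlation, 3 were sought for DKK3 and SOST and 1 for each other member tested in every table, and 1 of them is not reported here.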

Additional observations from a re-analysis of the deposited data

Results flagged for a closer look

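The siBRDT change differed between KYSE180 and TE6, by a limma contrast of both fold changes, for 4 members. DKK3 fell further in KYSE180, by a log2 difference of -1.53, with an adjusted p of 5.3e-07 that ran from 1.8e-09 to 2.6e-05 over the alternatives. SOST fell further in TE6, by 1.68, with an adjusted p of 1.6e-04 (5.6e-05 to 0.0025). The TE6 siCont libraries of both tests also entered the choice of DKK3 and SOST. DKK1 differed by -0.37 (adjusted p = 0.046, 0.0086 to 0.16), and LEF1 by 0.55 (adjusted p = 0.030, 0.013 to 0.18), so both passed or missed the threshold with the setting. No group held 4 or more libraries, so no outlier rule was run on single libraries. TE6 siBRDT replicate 1 was singled out above by its genes holding a read and its upper quartile. KYSE180 siBRDT replicate 1 also held more genes with a read (18972, against 17187 to 17778 in the other libraries of its table). Its upper quartile was 607, against 659 to 687 in those.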

How the results depend on the processing

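The 7 members called lower with siBRDT in KYSE180 and the 2 with BRDT-OE were 7 and 2 under every alternative run, and the 5 in TE6 were 4 to 6. Under siTP63 in KYSE150, the members called lower went from 0 to 1 under each of the replicate block, DESeq2 and the unfiltered fit, and were 1 to 1 when 1 library was left out. A crossed replicate block, added after the data were seen because same-numbered libraries deviated apart (r = -0.70), gave 2 lower and 2 higher among the members, and 1774 lower and 1626 higher among all genes. Members called higher with BRDT-OE went from 1 to 2 with no limit on the fold change. Members whose siBRDT change differed between lines went from 4 to between 2 and 4 when 1 library was left out, 2 without KYSE180 siCont replicate 1 or 2, KYSE180 siBRDT replicate 1 or TE6 siCont replicate 2.

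4 differences near 0 changed sign, and the cause was not tested. WNT5A under siTP63 in TE6 was 0.025 with equal upper quartiles and ran from -0.13 to 0.094 when 1 library was left out. LEF1 under siBRDT in KYSE180 ran from -0.019 to 0.067, FZD7 under siTP63 in KYSE150 from -0.076 to 0.30, and the difference between lines for WNT5A from -0.15 to 0.28. In the other comparisons correlations of same-numbered libraries were low (r from -0.084 to 0.18), and the block changed no other member call. Of the 6 libraries each of the siBRDT comparison in KYSE180 and the BRDT-OE comparison, 4 and 5 correlated best with their own number. Whether the numbers mark pairs there was not settled. Where leaving out a library left 1 in a group, that one was assumed to vary like the other groups. Over all genes in KYSE150 under siTP63, limma called 0 genes, DESeq2 259 lower and 202 higher, edgeR 0, no filter 18 and 27, the block 48 and 89, and fits without 1 library 77 to 177 lower and 108 to 182 higher. Members with few reads (SFRP1, AXIN2, and SOST and WNT5A in KYSE150) are limited by depth.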
